A study of Mus musculus with 8 samples.

Results

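Fcrls, Qprt, Serpind1, Cd4, Cbr2 and St18 are 6 genes of a count table of 27133 genes, measured in 8 RNA-seq libraries of mouse parietal bone, which forms the top and side of the skull. They were selected on these same counts, which were lower in each of the 4 libraries from pups given an antibody against CSF1R than in any isotype library, while none is a standard marker of bone macrophages or osteoclasts. That contrast chose them, so the values of these 6 genes are a description and no p-value is given for them. Signals through CSF1R keep macrophages alive and let their precursors become osteoclasts. The isotype group (libraries 2, 3, 4 and 5) and the anti-CSF1R group (libraries 7, 8, 9 and 10) were both C57BL6J pups dosed by the transcranial route at 2, 4 and 6 days of age and perfused at 9 days, when the bone was taken. The 2 groups thus shared strain, age, route and schedule and differed in the antibody, for which the sources used here give no clone or amount. The labels do not say that a library is 1 pup, and p-values then measure only the spread between these libraries, which may be technical. RNA came from the whole bone, so fewer cells of a type and less RNA per cell cannot be told apart.

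The 6 genes belong to unrelated families. Fcrls is a rodent member of the Fc receptor-like family with a scavenger receptor domain, known from microglia and related tissue macrophages. Qprt encodes the enzyme that turns quinolinate, the end of the kynurenine route of tryptophan breakdown, into a precursor of NAD. Serpind1 encodes heparin cofactor II, a plasma inhibitor of thrombin that is activated by heparin and dermatan sulfate and is made mainly by the liver. Cd4 encodes the co-receptor that helper T cells use to bind MHC class II, and some dendritic cells and macrophages carry it too. Cbr2 encodes a mitochondrial carbonyl reductase first known from lung, and St18 a zinc finger transcription factor of the MYT family known from neurons and oligodendrocytes.

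Promoters are shown because the genes were lower together. RefSeq (GRCm38.p6) gave a window of 250 bases before to 50 after the start site for 4 of the 6 genes. These are Fcrls (chr3:87263475-87263774, minus strand), Qprt (chr7:127121980-127122279, minus strand), Serpind1 (chr16:17331121-17331420, plus strand) and Cbr2 (chr11:120731972-120732271, minus strand). Each is written 5′ to 3′ in the gene's direction, with capitals for matches on either strand to 6 motifs of factors known from myeloid cells: SPI1 (GAGGAA), MAF (TGCTGA), RUNX (TGTGGT), NFAT (TGGAAA), AP-1 (TGANTCA) and MITF (TCATGTG).
Fcrls: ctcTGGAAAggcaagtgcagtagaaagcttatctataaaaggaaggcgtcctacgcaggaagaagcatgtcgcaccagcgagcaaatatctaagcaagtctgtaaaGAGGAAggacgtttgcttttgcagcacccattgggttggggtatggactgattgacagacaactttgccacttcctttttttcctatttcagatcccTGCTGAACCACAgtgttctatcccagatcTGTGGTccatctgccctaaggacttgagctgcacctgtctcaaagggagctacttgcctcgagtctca
Qprt: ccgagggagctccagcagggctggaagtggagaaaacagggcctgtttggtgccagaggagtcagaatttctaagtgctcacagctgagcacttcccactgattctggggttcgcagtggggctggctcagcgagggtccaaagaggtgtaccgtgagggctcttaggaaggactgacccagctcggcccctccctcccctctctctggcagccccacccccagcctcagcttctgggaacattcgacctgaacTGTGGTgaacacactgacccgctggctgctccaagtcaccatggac
Serpind1: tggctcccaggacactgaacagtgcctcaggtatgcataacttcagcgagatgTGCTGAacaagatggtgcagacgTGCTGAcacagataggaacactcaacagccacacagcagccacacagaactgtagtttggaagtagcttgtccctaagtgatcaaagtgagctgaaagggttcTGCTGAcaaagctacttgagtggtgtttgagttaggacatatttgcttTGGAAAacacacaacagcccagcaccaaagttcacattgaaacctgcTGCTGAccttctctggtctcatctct
Cbr2: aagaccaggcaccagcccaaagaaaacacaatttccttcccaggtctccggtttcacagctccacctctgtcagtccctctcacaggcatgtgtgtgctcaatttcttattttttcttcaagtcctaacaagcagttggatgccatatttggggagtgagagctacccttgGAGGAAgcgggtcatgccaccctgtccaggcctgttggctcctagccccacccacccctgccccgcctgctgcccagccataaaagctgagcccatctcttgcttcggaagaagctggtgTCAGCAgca
The Serpind1 window held 4 MAF matches, with first bases at -197, -174, -71 and 25 from the start site, and 1 NFAT match at -23. The Fcrls window held matches to 4 of the motifs: SPI1 at -144, MAF at -47, RUNX at -41 and -18, and NFAT at -247; the MAF match and the RUNX match at -41 adjoin and form 1 run of capitals. Cbr2 held SPI1 at -79 and MAF at 42, and Qprt held a RUNX match at 5. No 2 matches overlapped. Of 32851 promoter windows of this length, 28.3% held SPI1, 19.5% MAF, 16.8% RUNX, 21.4% NFAT, 7.81% AP-1 and 3.77% MITF letters. SPI1 letters stood in 2 of the 4 windows, MAF in 3, RUNX in 2, NFAT in 2, and AP-1 and MITF in 0. A match is a description of letters, not a bound site.

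The libraries held between 57.5 M and 69.1 M counts, and a detection floor of 3 counts equalled 0.0396 to 0.0573 CPM, which covers counting error only and would be higher where both reads of a pair were counted. Levels are CPM (counts scaled to a common library size with TMM factors). Of 17028 genes tested, 140 were lower and 4 higher with anti-CSF1R, 0.822% and 0.0235%, or 0.846% in all (edgeR quasi-likelihood test, Benjamini-Hochberg adjusted p under 0.05). Isotype libraries 3 and 4 stood apart. Their Spearman correlation with the other 6 across genes was 0.916 to 0.943, against 0.986 to 0.997 among those 6 and 0.989 between the pair. The GC content of a transcript correlated with a gene's deviation from its median level at 0.650 and 0.640 in isotype 3 and 4, against -0.371 to -0.029 in the others (Spearman, across genes). Results are therefore also given with isotype 2 and 5 only. Of the markers of the labelled tissue, Col1a1, the main collagen of bone, stood at 121000 ± 29900 CPM with isotype and 84000 ± 7760 with anti-CSF1R (SD, n = 4; adjusted p = 0.278), and 0 of 10 osteoblast genes passed (4 with an unadjusted p under 0.05, 0 in DESeq2). Csf1r itself was 6.34 times lower, from 361 ± 152 to 57 ± 11.8 CPM (adjusted p = 0.0156).

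Fcrls showed the largest difference of the 6. It had 10, 18.1, 17.2 and 10.1 CPM in isotype libraries 2, 3, 4 and 5, in that order. The anti-CSF1R libraries 7, 8, 9 and 10 had 0.623, 0.528, 1.18 and 0.528 CPM. The groups were far apart, since the lowest isotype library was 8.47 times the highest anti-CSF1R library. Group means were 13.9 ± 4.42 and 0.716 ± 0.315 CPM (SD, n = 4), a ratio of 19.4 and a log2 fold change of -4.27 ± 0.37 (SE). Only 2 of the genes tested had a lower log2 fold change, which put Fcrls at rank 3 of 17028. These 2 were the muscle genes Acta1 and Ckm, which were uneven among the isotype libraries and not past the threshold. Against isotype 2 and 5 only, the ratio was 14.

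Qprt stood at 6.26, 18.9, 11.4 and 5.63 CPM in the isotype libraries, and 1.29, 1.21, 1.24 and 0.578 CPM in the treated ones, both in the order above. Isotype 3 and 4 were high and anti-CSF1R 10 low, and the groups did not overlap. Means of 10.5 ± 6.13 and 1.08 ± 0.337 CPM gave a ratio of 9.75 (log2 fold change -3.28 ± 0.45, rank 8), and 5.50 with isotype 2 and 5 only. It had the widest relative spread of the 6 in the isotype group, a coefficient of variation of 58.2%.

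Serpind1 was the gene with the fewest counts after anti-CSF1R, 18 to 44 per library. Its levels were 2.36, 6.26, 3.34 and 2.49 CPM in the isotype group and 0.255, 0.581, 0.375 and 0.429 CPM in the treated group. Isotype 3 was the high library, and every isotype library was above every anti-CSF1R library. The ratio of means was 8.81 (log2 fold change -3.13 ± 0.40, rank 11), and 5.91 with isotype 2 and 5 only.

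Cd4 stood at 5.44, 6.41, 9.69 and 7.61 CPM in the isotype group and at 0.496, 0.898, 1.38 and 0.528 CPM in the treated group. It was the most even of the 6 among isotype libraries, with a coefficient of variation of 25.1%, and isotype 2 was its lowest. The ratio of means was 8.82 (log2 fold change -3.13 ± 0.37, rank 10). With isotype 2 and 5 only it was 7.89, the nearest of the 6 to its ratio over all isotype libraries.

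Cbr2 was at 3.19, 7.48, 6.93 and 3.14 CPM in the isotype group and at 0.737, 0.687, 0.865 and 0.858 CPM in the treated group. The treated libraries lay close together, with a coefficient of variation of 11.3%, while isotype 3 and 4 stood above the other isotype libraries. The ratio of means was 6.59 (log2 fold change -2.72 ± 0.34, rank 29), and 4.02 with isotype 2 and 5 only.

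St18 differed from the rest. Its levels were 4.29, 2.16, 1.70 and 4.55 CPM in the isotype group and 0.864, 1.23, 1.36 and 0.396 CPM in the treated group. Isotype 3 and 4 were its low isotype libraries, and the lowest isotype library was only 1.25 times the highest anti-CSF1R library. The ratio of means was 3.3 (log2 fold change -1.72 ± 0.44), which ranked 162 of 17028, within the lowest 0.951% of genes tested but well behind the other 5. With isotype 2 and 5 only the ratio was 4.60.

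**Figure D1:**
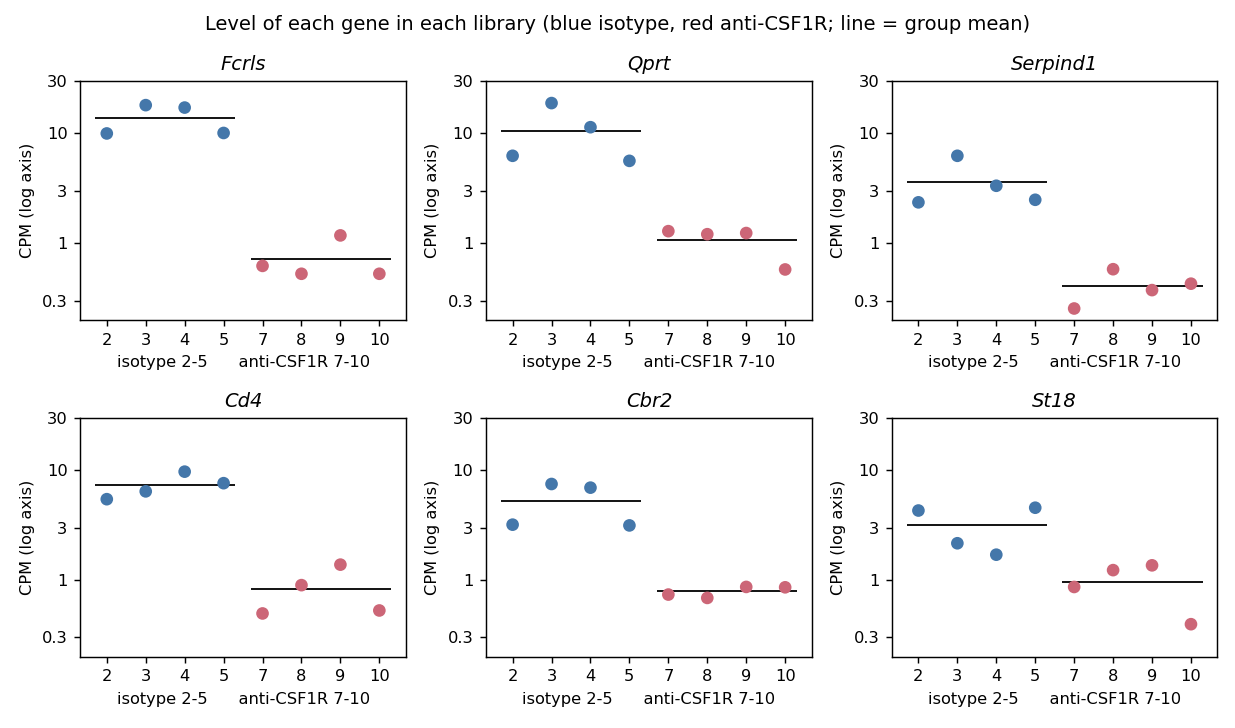
CPM (log axis) of Fcrls, Qprt, Serpind1, Cd4, Cbr2 and St18 in isotype libraries 2 to 5 (blue) and anti-CSF1R libraries 7 to 10 (red), with the group mean as a line. All 4 red points lie below all 4 blue points in each panel, with the narrowest gap in St18 (1.70 against 1.36 CPM) and the widest in Fcrls (10 against 1.18 CPM).

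Groups did not overlap in 6 of the 6 genes, and 8.34% of all genes tested had every anti-CSF1R library below every isotype library (6.61% had every one above). In edgeR 5 of the 6 passed the threshold and St18 did not, against 0.822% of genes tested that were called lower; as this contrast chose the genes, nothing is read from these counts. With isotype 2 and 5 only, and with an offset for GC content and transcript length, 6 of the 6 passed. The background was then 2.38% and 2.16% of genes called lower, 0.679% and 0.493% called higher, and 3.06% and 2.65% called in either direction.

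Compared per kilobase of the longest annotated transcript, isotype levels of the 6 genes differed widely. Fcrls stood at 6.10 CPM per kb (4.41 to 7.98 over the 4 libraries), Qprt at 5.14 (2.74 to 9.21) and Cbr2 at 4.67 (2.83 to 6.74), and these ranges overlapped. Cd4 followed at 2.35 CPM per kb (1.75 to 3.12) and Serpind1 at 1.65 (1.08 to 2.86), each overlapping its neighbour in the order. St18 was lowest at 0.539 CPM per kb (0.289 to 0.773), below the range of Serpind1. Csf1r stood at 76.9 CPM per kb, so each of the 6 was a minor transcript beside it.

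Isotype 3 and 4 separated the 6 genes. The mean of that pair was 2.55 times the mean of isotype 2 and 5 in Qprt, 2.28 in Cbr2, 1.98 in Serpind1, 1.76 in Fcrls and 1.23 in Cd4. In St18 it was 0.436. Over all genes tested the median of this ratio was 0.963, and 48.2% of genes were above 1. The transcripts had a GC content of 55.5% (Qprt), 56.9% (Cbr2), 47.3% (Serpind1), 48.5% (Fcrls), 52.0% (Cd4) and 41.7% (St18), the lowest in the gene that was low in isotype 3 and 4. Csf1r, with a GC content of 54.5%, had a ratio of 2.04. The part of GC content in these levels was not tested in single genes; with the offset for GC content and length the log2 fold changes were -4.27 (Fcrls), -2.84 (Qprt), -3.24 (Serpind1), -2.96 (Cd4), -2.19 (Cbr2) and -2.28 (St18).

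Relative to Csf1r in the same library, the 6 genes did not behave alike. The log2 level of Fcrls minus that of Csf1r was -4.66 ± 0.17 with isotype and -6.31 ± 0.49 with anti-CSF1R (SD, n = 4), a difference of -1.65 with no overlap between groups. For Qprt it was -5.17 ± 0.23 and -5.72 ± 0.2, also without overlap. Serpind1 (-6.65 ± 0.22 and -7.04 ± 0.63), Cd4 (-5.56 ± 0.61 and -6.15 ± 0.6) and Cbr2 (-6.14 ± 0.15 and -6.1 ± 0.44) overlapped between groups on this scale. St18 was at -5.78 and -5.7 in isotype 2 and 5, at -7.97 and -7.92 in isotype 3 and 4, and from -6.53 to -5.5 with anti-CSF1R. These differences use the contrast that chose the genes and carry no test.

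**Figure D2:**
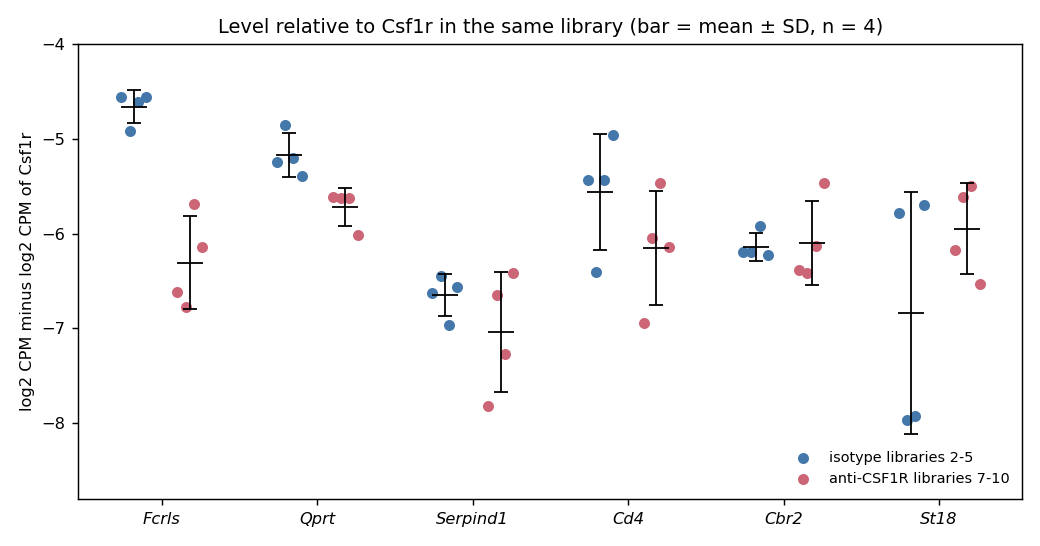
Log2 CPM of each gene minus log2 CPM of Csf1r in the same library, for isotype libraries (blue) and anti-CSF1R libraries (red), with mean ± SD (n = 4). The group means of Fcrls differ by -1.65, those of Cbr2 are -6.14 and -6.1, and St18 splits its isotype libraries in 2 pairs.

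After subtraction of each group's mean, which removes the contrast used in the choice, Qprt followed Csf1r over the 8 libraries with a Pearson r of 0.99. Cbr2, Fcrls and Serpind1 had r of 0.78, 0.72 and 0.60 with Csf1r, Cd4 0.31 and St18 -0.20. Between pairs of the 6 genes, r was 0.74 for Fcrls and Cbr2, 0.70 for Fcrls and Qprt, 0.70 for Qprt and Cbr2 and -0.70 for Cbr2 and St18; the other 11 pairs lay between -0.34 and 0.65. All points share the same 8 libraries, and the split of isotype 3 and 4 from 2 and 5 enters each of these values. With the mean log2 level of marker lists treated in the same way, Qprt had r of 0.93 with the osteoclast list. Cd4 had 0.83 and St18 0.76 with the list of resident and perivascular macrophages, and St18 0.78 with the monocyte list. Serpind1 had 0.82 with the T cell list, and Fcrls 0.66 with the macrophage list. Only 11 of the 18 T cell genes had enough counts to be tested, and the untested ones enter that mean with equal weight. Cbr2 had at most 0.42, with the osteoclast list, and -0.73 with the osteoblast list. These are the strongest positive values of each gene over 8 lists, with the next for Qprt at 0.77 and for Cd4 at 0.71, both with the macrophage list.

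The genes most like each of the 6, up to 3 of 13229, were ranked by Pearson r over the 8 libraries. With no centring the group difference dominates. Fcrls was then most like Oscar, an activating receptor of osteoclasts (r = 0.992), Phyhd1 (0.989) and Cyp4v3 (0.988). Qprt was most like Slc9b2, Cd68 and Csf1r (0.998 each), and Serpind1 most like Ptpn18 (0.983), Ip6k3 (0.976) and Tlcd3b (0.974). Cd4 was most like Cyp4v3 and Clec12a, an inhibitory lectin receptor of myeloid cells (0.979 each), and Otulinl (0.975). Cbr2 was most like C2, a complement protease (0.99), and Ip6k3 and Ext1 (0.988 each). St18 was most like Pde6a (0.974), Mrc1, the mannose receptor of macrophages (0.974), and Pik3cb (0.971). Mrc1 shared the order of the isotype libraries with St18, at 28.3, 9.54, 8.42 and 32.8 CPM, and its treated libraries lay between 2.77 and 7.96 CPM (log2 fold change -1.95 ± 0.51, adjusted p = 0.147). Against isotype 2 and 5 alone Mrc1 fell by 2.58 on the log2 scale (adjusted p = 0.0316), and its adjusted p ran from 0.00169 to 0.377 over the 14 alternatives.

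With group means subtracted, other genes came first. Qprt was most like Cd5 (0.993), Pola2 and Galnt6 (0.992 each), and Cbr2 like Rab28 (0.995), Anks6 and Sap30l (0.994 each). Fcrls was most like Kif3c (0.955), Ddit4 (0.950) and Ccn1 (0.942), and Serpind1 like Pcbd1 (0.979) and Lsp1 (0.975). Cd4 was most like M1ap (0.972), Siglec1, the sialoadhesin of resident macrophages (0.938), and Rhoh (0.926). St18 was most like Gvin3 (0.989), Tlr13, an innate receptor for bacterial RNA (0.988), and Adamtsl3 (0.969). Gvin3, Tlr13 and Adamtsl3 had positive log2 fold changes between the groups (0.61, 0.18 and 0.59, with adjusted p = 0.310, 0.749 and 0.278). That of Tlr13 turned to -0.24 with isotype 2 and 5 only and to -0.17 with the offset. Lsp1, unlike Serpind1, had the higher mean after treatment, 127 ± 21.4 CPM against 67 ± 19 (log2 fold change 0.92 ± 0.22, adjusted p = 0.114).

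The remaining results come from genes other than those chosen, in the same libraries and contrast. In 25 lists of related genes (some genes stand in more than 1), which gave the families, pathways and possible source cells, 182 distinct genes were tested. Of these, 23 fell and 0 rose (12.6% lower, against 0.822% of all genes). The lists were drawn up when earlier results of these data were already known. They hold Csf1r itself and standard macrophage and osteoclast markers. The higher share of falls is therefore a description, not independent evidence. The macrophage, osteoclast, resident macrophage and microglia lists held 21 of the 23, among 52 tested genes, and the other lists held 2 of 130. Without isotype 3 and 4, 31 fell and 5 rose, and the offset gave 35 lower and 2 higher. Without anti-CSF1R 7, 8, 9 or 10 the related genes called were 0, 0, 1 and 5, and without isotype 4 they were 7. The log2 fold changes of the 23 kept their sign in all 8 fits without 1 library and moved by at most 0.45, while their adjusted p reached at most 0.176 without 1 of the treated libraries.

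**Figure D3:**
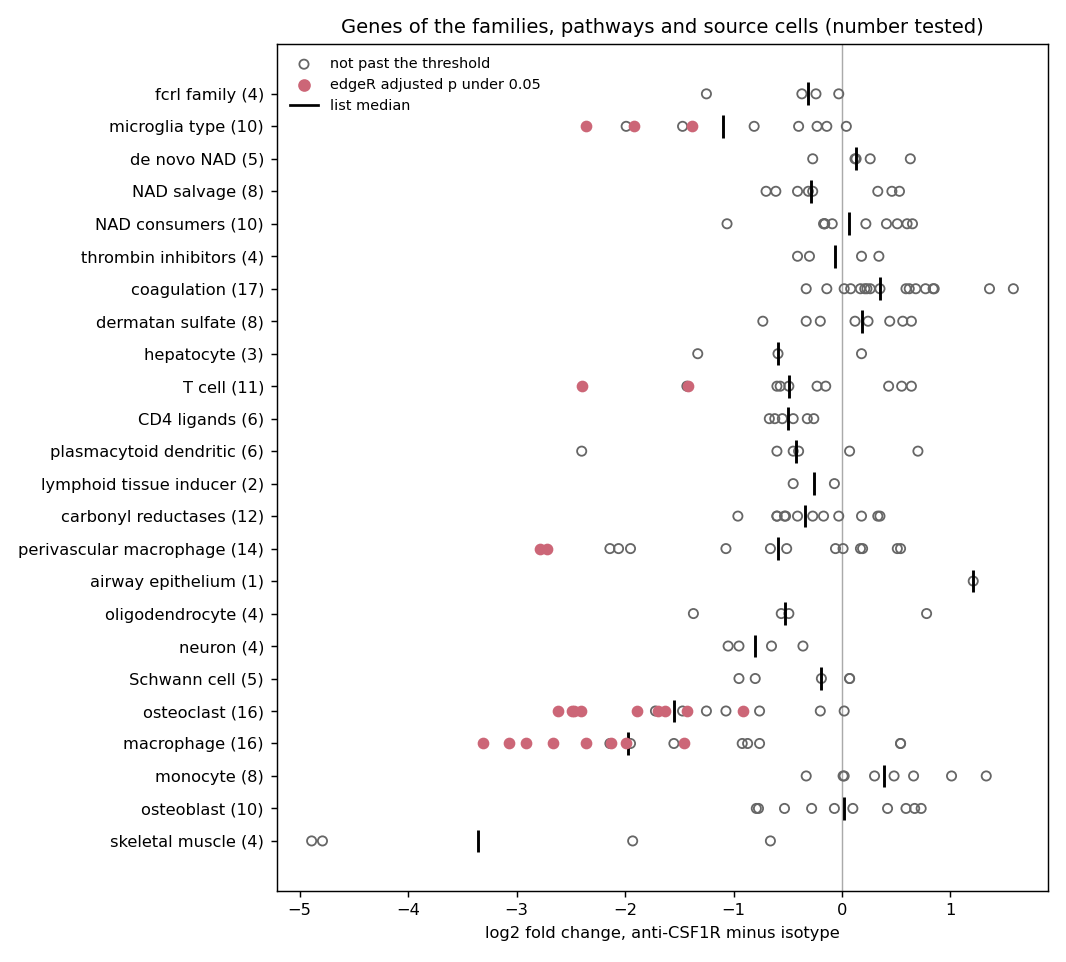
Log2 fold change (anti-CSF1R minus isotype) of each tested gene in the related lists, filled where the edgeR adjusted p was under 0.05, with the list median as a bar and the number tested in brackets. Filled points stand in 5 lists: microglia, T cell, perivascular macrophage, osteoclast and macrophage.

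In the macrophage list 8 of 16 tested genes fell and 0 rose (12 lower in DESeq2 and 12 with the offset), with a median log2 fold change of -1.97 against 0.03 over all genes. Csf1r, C1qc, C1qb and Adgre1 (the F4/80 antigen) had the smallest p-values, and Adgre1 fell from 15.7 ± 2.76 to 3.94 ± 1.21 CPM (adjusted p = 0.0173). In the osteoclast list 9 of 16 fell (14 lower in DESeq2 and 13 with the offset), with a median of -1.55, led by Oscar, Siglec15, Ctsk and Nfatc1. The monocyte list had 0 of 8 genes past the threshold (3 with an unadjusted p under 0.05, and 1 higher in DESeq2) and a median of 0.39. Its most abundant gene, Ace, stood at 92.8 and 73.6 CPM (adjusted p = 0.308). Macrophage list genes summed to 692 to 1230 CPM with isotype and 274 to 376 CPM with anti-CSF1R.

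Fcrls is best known from microglia, and 3 of 10 tested genes known from those cells fell (median -1.10; 5 were lower in DESeq2 and 5 with the offset). They include Trem2, a lipid-sensing receptor (4.47 ± 1.84 to 0.868 ± 0.150 CPM, adjusted p = 0.0189), and Cx3cr1, the fractalkine receptor (12.8 ± 3.80 to 3.37 ± 1.05 CPM, 0.0267). Macrophages outside the brain express both as well. Markers more restricted to microglia were chosen after their values were seen. P2ry12, a purine receptor, stood at 2.01 ± 1.13 and 2.07 ± 0.221 CPM, and Sall1, a factor of microglial identity, at or below 0.132 CPM in every library. For P2ry12 the log2 fold change was 0.04 (adjusted p = 0.951), and it was -0.53 against isotype 2 and 5. P2ry13, a related receptor, was lower after treatment, at 1.11 ± 0.336 and 0.276 ± 0.112 CPM. Its groups did not overlap, as in 8.34% of all genes tested. Its log2 fold change was -1.99, just short of the threshold (edgeR adjusted p = 0.0522). That adjusted p was 0.0141 against isotype 2 and 5, and the offset gave 0.0121. The list summed to 855 to 1960 CPM with isotype and 832 to 897 CPM with anti-CSF1R, mostly Olfml3 and Tmem119, which bone-forming cells also express. Among the other Fc receptor-like genes, 0 of 4 tested passed (1 with an unadjusted p under 0.05; 1 was lower in DESeq2). Fcrla, the most abundant and known from B cells, stood at 3.3 ± 0.763 and 2.78 ± 0.667 CPM (adjusted p = 0.473).

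Qprt had almost no company in its own pathway. Of 8 genes of the kynurenine route, 5 were tested and 0 passed, in edgeR or DESeq2 (0 with an unadjusted p under 0.05; median 0.13). The entry enzymes Ido1, Ido2 and Tdo2 stayed at or below 0.288 CPM in every library. Kmo (0.511 ± 0.0898 and 0.423 ± 0.0647 CPM), Kynu (0.211 ± 0.0195 and 0.232 ± 0.0485 CPM) and Haao (0.674 ± 0.273 and 0.806 ± 0.136 CPM), the steps that lead to quinolinate, were each below 1 CPM in every library. Afmid, the formamidase of the route and its most abundant gene, stood at 10.1 ± 0.976 and 11 ± 1.36 CPM (adjusted p = 0.587). Of the salvage routes of NAD, 0 of 8 tested genes passed in edgeR or DESeq2 (1 with an unadjusted p under 0.05). Nampt, their rate-limiting enzyme, stood at 17.5 ± 9.58 and 24.1 ± 0.719 CPM (adjusted p = 0.376), with a log2 fold change of 0.46 that turned to -0.10 with isotype 2 and 5 only and to -0.02 with the offset. Of the enzymes that use NAD, 0 of 10 passed (2 with an unadjusted p under 0.05; 1 lower in DESeq2 and 1 with the offset), and Sirt2, the most abundant, stood at 97.3 ± 12.2 and 86.3 ± 2.91 CPM (adjusted p = 0.376), a log2 fold change of -0.17 that turned to 0.13 with the offset.

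Serpind1 is a liver gene by its textbook role, and hepatocyte markers were nearly absent. Alb, Apoa1, Apob and Ahsg stayed at or below 0.198 CPM in every library, and Fgb had 0 counts in every library. The list summed to 4.37 to 9.70 CPM with isotype and 4.23 to 4.73 CPM with anti-CSF1R, mostly Apoa2 (4.83 ± 2.36 and 3.20 ± 0.140 CPM, adjusted p = 0.292; log2 fold change -0.59, and 0.07 with isotype 2 and 5 only). Of other inhibitors of thrombin and of plasminogen activators, 0 of 4 tested passed in edgeR or DESeq2 (0 with an unadjusted p under 0.05). Serpine2, protease nexin 1, was abundant at 1460 ± 428 and 1180 ± 78.9 CPM (adjusted p = 0.347; log2 fold change -0.30, and 0.07 with isotype 2 and 5 only), while Serpinc1, antithrombin, stood at 0.536 ± 0.244 and 0.609 ± 0.0958 CPM (0.724). F2, the gene of the target thrombin, stood at 16.6 ± 8.85 and 25.0 ± 1.17 CPM (adjusted p = 0.308). The coagulation list had 0 of 17 tested genes past the threshold (5 with an unadjusted p under 0.05; 2 higher in DESeq2 and 3 with isotype 2 and 5 only) and a median of 0.35. Pros1, the anticoagulant protein S and the list's most abundant gene, stood at 93.1 ± 44.8 and 149 ± 5.69 CPM (adjusted p = 0.278). Of 8 makers and carriers of dermatan sulfate, 0 passed in edgeR or DESeq2 (1 with an unadjusted p under 0.05), and the carrier Bgn stood at 3350 ± 463 and 2910 ± 124 CPM (adjusted p = 0.377).

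Chains of the T cell receptor complex differed in level. The CD3 chains Cd3d, Cd3e and Cd3g stayed at or below 0.283 CPM in every library, at most 20 counts, and Cd8a and Cd8b1 at or below 0.231 CPM; none of the 5 was tested because all were too low. In the T cell list 2 of 11 tested genes fell: Cd5, a receptor of T cells and B-1 cells, from 5.08 ± 2.67 to 0.954 ± 0.268 CPM, and Trac, the constant segment of the T cell receptor alpha chain, from 1.56 ± 0.113 to 0.582 ± 0.128 CPM (adjusted p = 0.0318 and 0.0296). Isotype 2 to 5 had 3.13, 8.82, 5.18 and 3.19 CPM of Cd5, which was high in the same libraries as Qprt and Csf1r. The constant segments of the beta chain were scarcer than Trac. Trbc1 stood at 0.177 ± 0.129 and 0.0914 ± 0.0848 CPM and was not tested. Trbc2 stood at 0.209 ± 0.143 and 0.0764 ± 0.073 CPM (log2 fold change -1.43, edgeR adjusted p = 0.305). Lck and Zap70, kinases of the receptor, stood at 1.48 and 1.33 CPM and at 1.08 and 0.919 CPM (adjusted p = 0.728 and 0.574). Cd247, the zeta chain of the complex, had means of 10.9 ± 5.05 and 14.7 ± 1.51 CPM (adjusted p = 0.357). The T cell list summed to 57.3 to 82.7 CPM with isotype and 49.2 to 52.7 CPM with anti-CSF1R, mostly Zbtb7b and Cd247. Of the ligands of CD4, 0 of 6 passed in edgeR or DESeq2 (0 with an unadjusted p under 0.05). Cd74, the MHC class II invariant chain, stood at 28.7 ± 14.8 and 18 ± 2.92 CPM (adjusted p = 0.283), with a log2 fold change of -0.67, and -0.01 with isotype 2 and 5 only. Among other cells that can carry CD4, markers of plasmacytoid dendritic cells and lymphoid tissue inducer cells did not pass. Macrophages, which can carry it too, are described above. Plasmacytoid dendritic cell genes had 0 of 6 past the threshold (1 with an unadjusted p under 0.05; 1 lower in DESeq2), with Siglech at 0.535 ± 0.213 and 0.407 ± 0.194 CPM (adjusted p = 0.503) and Pacsin1, the most abundant, at 58.4 ± 9.69 and 61.3 ± 8.72 CPM (0.776). Of the lymphoid tissue inducer list, Il22 and Il17a had 0 counts, and 0 of 2 tested genes passed in edgeR or DESeq2 (0 with an unadjusted p under 0.05).

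Cbr2 is abundant in airway epithelium and is also known from resident macrophages. Airway genes Scgb1a1, Scgb3a2, Cyp2f2 and Sftpb stayed at or below 0.0991 CPM in every library, at most 6 counts. Sftpc, the only one tested, stood at 0.137 ± 0.0766 and 0.326 ± 0.106 CPM (adjusted p = 0.278, unadjusted p under 0.05; not called in DESeq2). Of 12 other carbonyl-reducing enzymes 0 passed in edgeR or DESeq2 (3 with an unadjusted p under 0.05; Dhrs3 was higher under the offset and against isotype 2 and 5). Akr1a1, the most abundant of them, stood at 394 ± 206 and 202 ± 11.2 CPM (adjusted p = 0.259). In the list of resident and perivascular macrophages 2 of 14 tested genes fell (median -0.59; 6 were lower in DESeq2 and 5 with the offset). Ms4a7 fell from 8.23 ± 0.757 to 1.19 ± 0.400 CPM and Clec10a, a galactose lectin, from 2.66 ± 1.15 to 0.401 ± 0.167 CPM (adjusted p = 0.00978 and 0.0267). Other markers of this list were chosen after their values were seen. Siglec1 stood at 2.7 ± 1.02 and 0.608 ± 0.319 CPM (adjusted p = 0.0674). Cd163, the haemoglobin receptor, stood at 28.6 ± 13.1 and 41.7 ± 1.83 CPM (0.299). Folr2, a folate receptor, stood at 8.33 ± 0.941 and 8.00 ± 0.445 CPM (0.790). Against isotype 2 and 5 alone their log2 fold changes were -2.11 (Siglec1), 0.06 (Cd163, from 0.54 with all libraries) and -0.05 (Folr2). With isotype 2 and 5 only 4 genes of this list fell and 1 rose. The list summed to 389 to 518 CPM with isotype and 375 to 428 CPM with anti-CSF1R.

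St18 had neither its family nor its usual cells beside it. The other MYT genes, Myt1 and Myt1l, stayed at or below 0.099 CPM in every library, at most 6 counts, and were not tested. The oligodendrocyte genes Mog, Olig1 and Olig2 stayed at or below 0.223 CPM. That list had 0 of 4 tested genes past the threshold (1 with an unadjusted p under 0.05, 1 lower in DESeq2) and summed to 31.7 to 58.5 CPM with isotype and 27.4 to 35.8 CPM with anti-CSF1R. Cnp, its most abundant gene and not restricted to those cells, stood at 27.8 ± 12.6 and 18.8 ± 1.22 CPM (adjusted p = 0.286; log2 fold change -0.56, and 0.02 with isotype 2 and 5 only). Of 4 tested neuron genes 0 passed (1 with an unadjusted p under 0.05, 1 lower in DESeq2), and the list summed to 7.61 to 15.7 and 6.10 to 7.48 CPM. Snap25 and Syt1, genes of the synapse, stayed at or below 0.351 CPM, and Tubb3 stood at 7.47 ± 3.35 and 4.77 ± 0.725 CPM (adjusted p = 0.283; log2 fold change -0.65, and 0.05 with isotype 2 and 5 only). Of 5 Schwann cell genes 0 passed in edgeR or DESeq2 (1 with an unadjusted p under 0.05), with Pmp22 at 123 ± 12.6 and 129 ± 8.56 CPM (adjusted p = 0.694). Skeletal muscle genes were high in isotype 2 and 3. The list summed to 3.68 to 55.5 CPM with isotype and 3.67 to 4.38 CPM with anti-CSF1R, and Acta1, muscle actin, had 10.9, 22.8, 0.462 and 0.17 CPM in these 4; 0 of 4 tested muscle genes passed (3 with an unadjusted p under 0.05, 3 lower in DESeq2). The part of muscle in the levels of the 6 genes was not tested. Isotype 3, the library with the most muscle RNA, was also the highest for Fcrls, Qprt, Serpind1 and Cbr2, while St18 was highest in isotype 2 and 5 and Cd4 in isotype 4. With group means subtracted, r with the muscle list over the 8 libraries was 0.59 for Serpind1, 0.49 for Qprt, 0.36 for Cbr2, 0.15 for Fcrls, -0.19 for St18 and -0.42 for Cd4.

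Genes next to the 6 were not used in the choice, and none of those tested passed the threshold in edgeR with all libraries. Serpind1 lies inside Pi4ka, a lipid kinase gene on the opposite strand, in the RefSeq annotation of GRCm38.p6. Isotype 2 to 5 had 82.2, 66.3, 80.8 and 79.3 CPM of Pi4ka, and treated libraries 7 to 10 had 78.7, 80.5, 82 and 82.5 CPM (log2 fold change 0.07 ± 0.13, adjusted p = 0.701; -0.03 with the offset). The sources used here do not say whether counting used strand. Without strand, reads from any stretch counted for both of the 2 genes could not be told apart. Whether such a stretch exists was not examined. Pi4ka had far more counts than Serpind1 in every library, and its groups overlapped. On either side of Serpind1, Tmem191c and Snap29 differed by 0.41 and 0.09 on the log2 scale (adjusted p = 0.283 and 0.693). The value for Snap29 turned to -0.08 with isotype 2 and 5 only and to -0.16 with the offset.

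Beside Cd4 stand Lag3, a relative of CD4 that also binds MHC class II, and Gpr162. Lag3 stood at 4.42 ± 1.26 and 2.45 ± 0.217 CPM (log2 fold change -0.85 ± 0.22, adjusted p = 0.143), and Gpr162 at 29.9 ± 5.40 and 34.8 ± 2.16 CPM (0.22 ± 0.16, 0.360). Every anti-CSF1R library was below every isotype library in Lag3, as in 8.34% of all genes tested. The adjusted p of Lag3 ran from 0.011 to 0.404 over the 14 alternatives, and was 0.0966 with isotype 2 and 5 only. Beside Fcrls stand Kirrel, at 314 ± 31.3 and 361 ± 20.6 CPM (adjusted p = 0.340), and Cd5l, a secreted scavenger protein of macrophages, at 1.02 ± 0.652 and 0.370 ± 0.145 CPM. The log2 fold change of Cd5l was -1.45 ± 0.55 (adjusted p = 0.278), and -0.37 with isotype 2 and 5 only. Spn, the leukocyte sialoglycoprotein CD43, lies next to Qprt on the same strand and stood at 6.53 ± 3.02 and 4.51 ± 1.98 CPM (log2 fold change -0.53, adjusted p = 0.380; 0.17 with isotype 2 and 5 only). Zg16, on the other side of Qprt, was at or below 0.0848 CPM and was not tested. Dcxr, a reductase gene beside Cbr2, stood at 7.66 ± 3.34 and 5.05 ± 0.595 CPM (log2 fold change -0.60, adjusted p = 0.288; 0.05 with isotype 2 and 5 only), and Hmga1b on its other side at 0.314 and 0.162 CPM (0.298). Pcmtd1, on 1 side of St18, stood at 30.3 ± 19.9 and 48.2 ± 4.34 CPM (adjusted p = 0.331), and Alkal1, on the other, was at or below 0.0638 CPM.

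**Figure D4:**
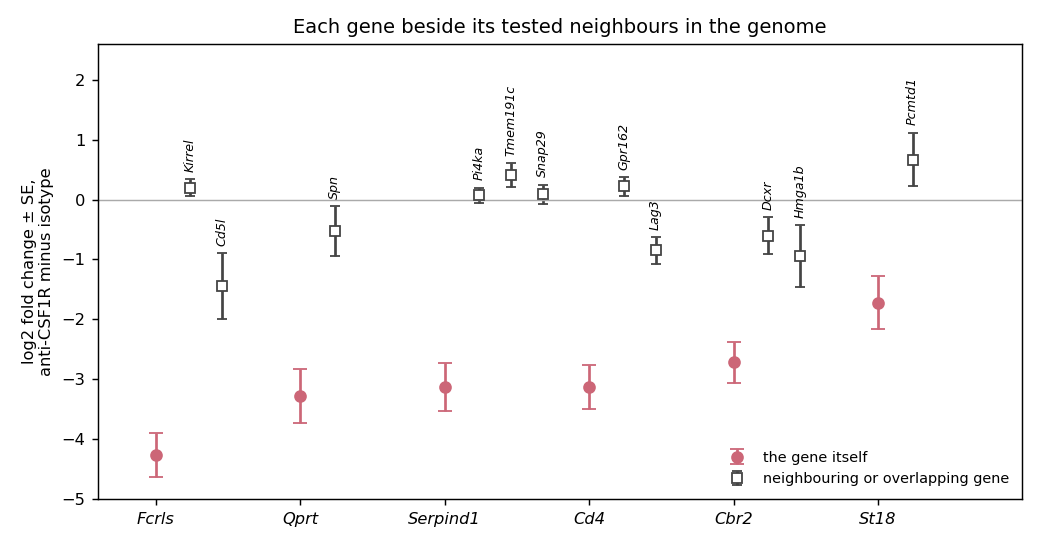
Log2 fold change (anti-CSF1R minus isotype, ± SE) of each of the 6 genes (filled circles) and of its tested neighbouring or overlapping genes (open squares). The 6 genes lie between -4.27 and -1.72, and their neighbours between -1.45 and 0.67, none of these neighbours past the edgeR threshold with all libraries.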

How the data were processed

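RNA of parietal bone was sequenced in 8 libraries, 4 per group. The authors deposited raw counts per gene symbol in 1 table of 27133 genes. The submitters' processing notes list STAR 2.7.10b, featureCounts 1.6.3 and the builds GRCm38 and GRCm39; which build the counts used, the annotation and the strand setting: not given in the sources used here. Between 82.8% and 84.7% of counts from 1 to 10 were even, a pattern that counting each read of a pair would give, so totals may overstate the number of fragments. Libraries were made with a stranded mRNA kit and read as pairs, per the labels' protocols.

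The 17028 genes kept by filterByExpr were tested with edgeR 4.0.16 in R 4.3.3 (TMM, robust quasi-likelihood F-test, Benjamini-Hochberg adjustment over all genes, threshold 0.05); the code was tested on simulated data. Standard errors are the log2 fold change over the root of F. Ratios are of mean CPM; correlations and levels relative to Csf1r use log2 CPM with a prior count of 2. Lengths and GC content are those of the longest GENCODE M21 transcript, which 94.0% of tested genes had; the offset used natural splines with 5 degrees of freedom.

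The 6 genes and the 25 lists were chosen with earlier results of these data known. Named were the 6 genes, Csf1r, per list up to 4 genes past the threshold by p or else the 1 with the highest CPM, the nearest named gene on each side and any overlapping gene, and per gene the 3 most alike on each scale (mean log2 CPM of at least 0, with a symbol of their own). Some genes that this rule names are not reported here. Genes printed beyond these to complete a pathway or a marker set were chosen after their values were seen. Alternatives were RLE factors, DESeq2 1.42.0, no filter, 1 CPM in 4 libraries, isotype 2 and 5 only, the offset, and leaving out each library.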

Additional observations from a re-analysis of the deposited data

Results flagged for a closer look

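In 14 groups of 4 libraries (the 6 genes and Csf1r in each group), the gap between the end library and its nearest neighbour was set against the group's whole range. In 3 it exceeded the critical value of Dixon's test for 4 values, which chance exceeds in about 1 in 20 groups. Anti-CSF1R 10 was far below the other anti-CSF1R libraries in Qprt (0.578 against 1.21 to 1.29 CPM, 0.895 of the range) and in Csf1r (39.4 against 61.4 to 64.4 CPM, 0.879 of the range). Anti-CSF1R 9 was far above the others in Fcrls (1.18 against 0.528 to 0.623 CPM, 0.855 of the range). None was in the isotype group.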

How the results depend on the processing

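No paired analysis was possible because the groups share no replicate number. The log2 fold changes of the 6 genes stayed negative under all 14 alternatives, and 80 of 84 values moved by less than the spread between libraries; the others were those of Cbr2, Qprt and Serpind1 with isotype 2 and 5 only (-2.01, -2.45 and -2.56) and of Cbr2 with the GC and length offset (-2.19). As the choice of the genes fixes their direction, this is no sign of stability. Counts of calls did move. Over all genes 777 were called with DESeq2, 452 with the offset and 536 with isotype 2 and 5 only, against 144. Of the related genes 47, 37 and 36 were called, against 23. Without 1 library the count over all genes ran from 0 to 260 and that of related genes from 0 to 29. Leaving out anti-CSF1R 7 left 0 of all genes (edgeR; 1903 at an unadjusted p under 0.05) and leaving out 8 also 0 (1597). It was 4 without 9, 14 without 10, 35 without isotype 4, and 260 and 234 without isotype 2 and 5; related genes numbered 0, 0, 1 and 5 without anti-CSF1R 7, 8, 9 and 10 and 7 without isotype 4. Each of 25 named genes past the threshold lost it in at least 2 of the 8 fits without 1 library, and all 25 kept it under the offset and against isotype 2 and 5. In those 8 fits the log2 fold changes of the 25 kept their sign and lay between 83.2% and 111% of the value from all libraries, while adjusted p reached at most 0.212. Signs turned in 17 of the genes named by the rule above, none of them past the threshold. With isotype 2 and 5 only log2 fold changes became 0.07 (Apoa2), 0.21 (Ccn1), 0.02 (Cnp), 0.05 (Dcxr), 0.10 (Ddit4), -0.10 (Nampt), 0.01 (Pcbd1), 0.22 (Pola2), 0.01 (Sap30l), 0.07 (Serpine2), -0.08 (Snap29), 0.17 (Spn), -0.24 (Tlr13) and 0.05 (Tubb3). With the offset they became 0.08 (Ccn1), 0.15 (Ddit4), -0.02 (Nampt), 0.06 (Pcbd1), -0.03 (Pi4ka), 0.13 (Sap30l), 0.13 (Sirt2), -0.16 (Snap29) and -0.17 (Tlr13). Without 1 library they ran from -0.04 to 0.16 (Pacsin1), -0.17 to 0.09 (Pola2), 0.0 to 0.16 (Snap29) and -0.03 to 0.42 (Tlr13). Some genes printed beyond that rule turned too. Examples are Cd247 (-0.05) and Serpinc1 (-0.26) with isotype 2 and 5 only, and Kynu (-0.4) and Folr2 (0.23) with the offset. The cause of these changes was not tested.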

Other observations

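Lsp1, an actin-binding protein of leukocytes named by its likeness to Serpind1 within groups, had 51.3, 92, 71.4 and 53.3 CPM in the isotype libraries. The anti-CSF1R libraries had 98.7, 148, 124 and 137 CPM, all above the isotype range, as in 6.61% of all genes tested. Against isotype 2 and 5 alone Lsp1 rose by 1.28 on the log2 scale (edgeR adjusted p = 0.00828), and over the 14 alternatives its adjusted p ran from 0.00225 to 0.346. Thbd encodes thrombomodulin, the endothelial receptor that turns thrombin to anticoagulation. Its mean was 47 ± 5.76 CPM in isotype libraries and 72.4 ± 7.73 CPM in treated ones (SD, n = 4), a difference of 0.62 ± 0.15 on the log2 scale (edgeR adjusted p = 0.113). Against isotype 2 and 5 alone the value for Thbd was 0.53 (edgeR adjusted p = 0.0172), and its adjusted p ran from 0.00482 to 0.364 over the alternatives. Both genes were chosen after their values were seen.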
